A study of Mus musculus with 6 samples.

Results

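Cytochrome P450 enzymes, UDP-glucuronosyltransferases (UGTs) and carboxylesterases carry out much of the oxidation, conjugation and hydrolysis of drugs, steroids and lipids in the liver. The genes described here were those whose array annotation gave 1 symbol of these families, together with *Ephx1*, the microsomal epoxide hydrolase. *Cyp51*, *Cyp2b9*, *Cyp2b10*, *Cyp2b13*, *Cyp4a10*, *Cyp4a14*, *Cyp4a12b*, *Cyp2d9*, *Cyp7a1*, *Cyp7b1*, *Cyp8b1*, *Cyp27a1*, *Cyp2e1* and *Cyp1a2* were set aside by the rule. The rule used no measured difference between groups, and it gave 36 of the 8251 genes with a symbol of their own, namely 27 P450s, 3 UGTs, 5 carboxylesterases and *Ephx1*. No probe set carried the symbol of the P450 reductase *Por* alone.

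Liver RNA was compared between Liver Insulin Receptor Knockout (LIRKO) mice, in which both insulin receptor alleles were floxed and Cre was driven by the albumin promoter (IR flox/flox, albumin:CRE +), and their Flox littermates (IR flox/flox, albumin:CRE -). The albumin promoter is active mainly in hepatocytes and their precursors. All mice were male, aged 2 to 3 months, of a mixed background that included, among other strains, C57BL/6, FVB and DBA, fed chow ad libitum and not fasted. There were 3 Affymetrix MG-U74A-v2 arrays a group, each with RNA pooled from 2 to 3 mice, and values are log2 signals after robust multi-array averaging (RMA). Such a value orders one gene between arrays and is not a measure of one gene's transcripts against another's.

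P450s are haem enzymes of the endoplasmic reticulum and mitochondria that insert oxygen into their substrates. The CYP1, CYP2 and CYP3 families act largely on foreign compounds, eicosanoids and steroids, the CYP4 family on fatty acids, and other families on hormones, vitamins and sterols. UGTs then attach glucuronic acid, and carboxylesterases cleave esters, including drug esters and triacylglycerol. In mouse liver many of these genes are controlled by the nuclear receptors CAR (*Nr1i3*), PXR (*Nr1i2*) and the xenobiotic sensor AhR, and several differ between the sexes.

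*Cyp2c39*, the gene of the 36 with the highest log2 fold change, lies in the *Cyp2c* cluster of chromosome 19. Ordered by leftmost coordinate, *Cyp2c29*, *Cyp2c39* and *Cyp2c38* stand in a row with 0 protein-coding genes between them. *Cyp2c70* lies 7 protein-coding genes beyond *Cyp2c38*. Their promoters are shown because these 4 genes did not move alike and because a shared sequence can be seen. Each sequence is the 250 bases before the annotated start on GRCm38.p6, from RefSeq, written 5′ to 3′ on the strand of the gene. The windows are chr19:39286835-39287084 on the plus strand for *Cyp2c29*, chr19:39463076-39463325 on the minus strand for *Cyp2c38*, chr19:39347096-39347345 on the plus strand for the first of 2 annotated starts of *Cyp2c39*, and chr19:40187287-40187536 on the minus strand for *Cyp2c70*. Capitals mark GTAAACA, the core letters bound by forkhead factors of the FoxO group, and AGGTCA, the hexamer that many nuclear receptors bind, each searched on both strands.
Cyp2c29: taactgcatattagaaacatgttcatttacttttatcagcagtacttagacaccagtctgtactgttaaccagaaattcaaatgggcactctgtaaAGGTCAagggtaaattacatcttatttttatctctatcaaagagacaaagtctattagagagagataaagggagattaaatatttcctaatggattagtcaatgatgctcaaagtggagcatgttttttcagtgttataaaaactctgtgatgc
Cyp2c38: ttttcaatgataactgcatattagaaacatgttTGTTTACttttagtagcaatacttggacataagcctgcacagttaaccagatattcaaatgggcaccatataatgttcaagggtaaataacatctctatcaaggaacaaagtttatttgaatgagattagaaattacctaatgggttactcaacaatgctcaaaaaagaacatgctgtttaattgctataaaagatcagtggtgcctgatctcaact
Cyp2c39: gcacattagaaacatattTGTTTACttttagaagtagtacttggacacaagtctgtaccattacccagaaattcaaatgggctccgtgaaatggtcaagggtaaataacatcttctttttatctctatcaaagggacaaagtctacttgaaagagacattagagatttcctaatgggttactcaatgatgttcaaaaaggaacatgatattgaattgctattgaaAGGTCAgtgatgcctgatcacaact
Cyp2c70: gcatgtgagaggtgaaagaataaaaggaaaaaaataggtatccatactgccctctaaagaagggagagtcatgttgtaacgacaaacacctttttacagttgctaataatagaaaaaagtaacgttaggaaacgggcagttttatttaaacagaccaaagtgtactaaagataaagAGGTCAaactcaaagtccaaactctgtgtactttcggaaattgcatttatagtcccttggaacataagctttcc
Over aligned bases, and with the first *Cyp2c39* start only, the *Cyp2c38* and *Cyp2c39* windows were 85.5% identical. *Cyp2c29* was 82.0% identical to *Cyp2c38* and 82.3% to *Cyp2c39*. *Cyp2c70* was 59.8% to 65.2% identical to the others. GTAAACA lay on the reverse strand, at bases 217 to 211 before the start of *Cyp2c38* and 232 to 226 before that of *Cyp2c39*. The window of the second *Cyp2c39* start lies beyond that of *Cyp2c38*, at chr19:39510572-39510821 on the plus strand. It also held GTAAACA, at bases 204 to 198. The *Cyp2c29* and *Cyp2c70* windows did not hold these letters. AGGTCA lay at bases 154 to 149 in *Cyp2c29*, 25 to 20 in the first *Cyp2c39* window and 74 to 69 in *Cyp2c70*. The window of the second *Cyp2c39* start did not hold it. Of all 32851 RefSeq windows of this length, 3.17% held GTAAACA and 14.02% held AGGTCA. Among the 31 members with a window, 5 held GTAAACA (*Cyp2c38*, *Cyp2c39*, *Cyp2j5*, *Cyp3a11* and *Cyp3a16*) and 10 held AGGTCA. A member was counted if the window of any of its starts held the letters. The percentages are of single windows, so the 2 are unlike units. The TATA box letters TATAAA were in 12 of the 31 members and in 12.4% of all windows. TTCNNNGAA, the letters bound by STAT factors, was in 2 of the 31 members and in 7.02% of all windows. A match is a description of these letters and not a binding site.

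The targeted gene, *Insr*, read 5.45, 5.22 and 5.38 on the Flox arrays and 5.37, 5.99 and 6.06 on the arrays labelled LIRKO, so it was not lower there. Where its probes lie relative to the floxed exon was not given in the sources used here, so the labels could not be checked with it. The names LIRKO 1 to LIRKO 3 below stand for the arrays labelled so. LIRKO 2 and LIRKO 3 stood apart from the other arrays: over the top decile of probe sets by Flox value their median difference from Flox was -1.09 and -0.89, against -0.01 on LIRKO 1, and the SD over all probe sets was 1.72 and 1.78 against 1.96 to 2.01 on the rest. Of the 36 genes, 17 lay in that decile, which held 993 of all 8251 genes. At the dim end the shift went the other way. Over the lowest decile of probe sets the median difference was 0.23 on LIRKO 2 and 0.15 on LIRKO 3, against -0.03 on LIRKO 1. Values on LIRKO 1 by itself are therefore given for most genes, and values after 2 rescalings for those the shift moves most. The rescalings were cyclic loess between arrays and subtraction of the median difference of each decile. The summed hepatocyte markers (5 of 5 measured) ranged over 15.56 to 15.65 on Flox and 14.92 to 15.66 on LIRKO arrays, with LIRKO 2 and 3 lowest. Summed levels on Flox and LIRKO arrays ranged over 9.90 to 10.54 and 9.65 to 10.68 for macrophages (5 of 5 markers), and 8.78 to 9.15 and 9.11 to 9.24 for endothelium (4 of 4). For stellate cells (4 of 4) they ranged over 9.89 to 10.14 and 9.87 to 10.86, and for cholangiocytes (3 of 4) over 6.85 to 6.97 and 6.76 to 7.16. Erythroid markers (2 of 3) ranged over 12.02 to 12.33 and 10.36 to 12.08, and lymphocyte markers (3 of 3) over 8.45 to 8.53 and 8.53 to 9.01. No marker passed limma's adjusted test, and at an unadjusted p under 0.05 a stellate marker read higher and a hepatocyte, a stellate and an erythroid marker lower. The part of these cells in the results was not tested. In RNA from whole liver, fewer cells of a type and less RNA per cell cannot be told apart.

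None of the 36 genes passed limma's moderated test at an adjusted p of 0.05, with a smallest adjusted p of 0.237, and 0.121% of all genes passed it. At an unadjusted p under 0.05, 4 read higher and 8 lower, beside 7.13% and 15.6% of all genes. All 3 LIRKO arrays lay above all 3 Flox arrays for 6 genes, *Cyp2c39*, *Cyp2c29*, *Cyp17a1*, *Cyp1a1*, *Cyp3a16* and *Ugt8a*. This was 16.7% of the 36, beside 9.65% of all genes. All 3 lay below for 7 genes, *Ces3a*, *Cyp2f2*, *Cyp2a12*, *Cyp4v3*, *Ces1g*, *Cyp2j5* and *Cyp21a1*. That share, 19.4%, was near the 16.7% of all genes. The remaining 23 overlapped. The median log2 fold change of the 36 was -0.11, beside -0.01 over all genes.

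**Figure D1:**
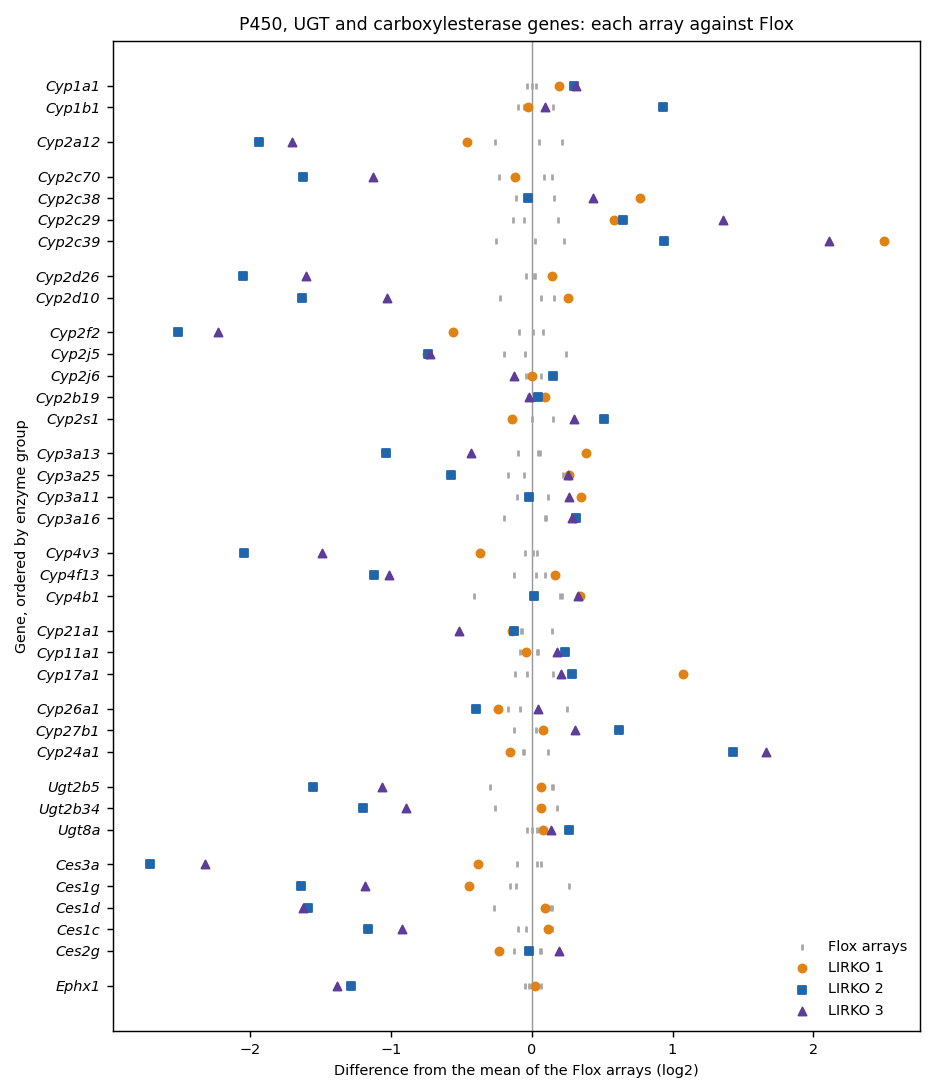
Log2 value of each array minus the Flox mean (horizontal axis) for the 36 genes, grouped by enzyme family (vertical axis). Grey ticks are the Flox arrays and coloured points the LIRKO arrays. *Cyp2c39* and *Cyp2c29* lie to the right on all 3 LIRKO arrays, while for *Ces3a*, *Cyp2f2* and *Cyp2d26* LIRKO 2 and LIRKO 3 lie far to the left of LIRKO 1.

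On LIRKO 1 alone, 15 of the 36 genes (41.7%) lay above all 3 Flox arrays, beside 25.6% of all genes. 10 (27.8%) lay below all of them, beside 30.5% of all genes, and 11 lay within the Flox range. *Cyp2c39* and *Cyp17a1* differed from the Flox mean by 2-fold or more on this array, 5.56% of the 36 beside 0.739% of all genes. Both were higher. These 2 also passed the adjusted test when LIRKO 1 was set by itself against Flox, where 0.836% of all genes passed and the lone array was assumed to vary as the Flox arrays do. For 14 genes the sign on LIRKO 1 was opposite to that of the mean over 3 arrays. Without LIRKO 1, 22 of the 36 (61.1%) passed, 6 higher and 16 lower, beside 50.7% of all genes. After cyclic loess *Cyp2c39* was the 1 gene of the 36 that passed, beside 0.388% of all genes.

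Among the 4 *Cyp2c* genes the median log2 fold change was 0.63, and 0.68 on LIRKO 1. *Cyp2c39*, which encodes a retinoic acid hydroxylase, read 8.77, 8.97 and 8.49 on Flox 1, 2 and 3 and 11.24, 9.68 and 10.85 on LIRKO 1, 2 and 3. Every LIRKO array lay above every Flox array, with LIRKO 2 the nearest to them. The mean was 8.74 ± 0.245 (SD, n = 3 arrays) in Flox and 10.59 ± 0.811 in LIRKO, a 3.61-fold difference (log2 fold change 1.85, SE 0.387, limma adjusted p = 0.237). On LIRKO 1 it was 5.66-fold above the Flox mean (adjusted p = 0.000479 for this array alone). Its log2 fold change became 2.37 with cyclic loess (adjusted p = 0.0241). With the deciles subtracted it became 2.14 (adjusted p = 0.0544). Over all alternatives the adjusted p ran from 0.000479 to 0.545.

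*Cyp2c29*, an epoxygenase of arachidonic acid and a CAR target, read 8.35, 8.27 and 8.58 on the Flox arrays and 8.98, 9.04 and 9.75 on the LIRKO arrays. The groups did not overlap, and LIRKO 3 was the highest. The log2 fold change was 0.86 (SE 0.226, adjusted p = 0.237), or 1.82-fold, and 1.20 and 1.15 after cyclic loess and after the deciles were subtracted. *Cyp2c38*, another enzyme of arachidonic acid, read 11.14, 11.41 and 11.21 on Flox and 12.02, 11.22 and 11.69 on LIRKO arrays. LIRKO 2 lay among the Flox values and the other two LIRKO arrays above them. Its log2 fold change was 0.39 (SE 0.214, adjusted p = 0.292), and 1.20 and 1.06 under the rescalings. *Cyp2c70*, which makes muricholic acids from other bile acids, read 11.11, 10.73 and 11.05 on Flox and 10.84, 9.34 and 9.83 on LIRKO arrays. LIRKO 1 lay within the Flox range and LIRKO 2 and 3 below it. The log2 fold change was -0.96 (SE 0.365, adjusted p = 0.237), -0.30 after cyclic loess and -0.29 after the deciles were subtracted. The probe set of *Cyp2c38* is of the kind that the array's makers marked as shared within a gene family, and the probes were not used here, so signal from near-identical *Cyp2c* transcripts cannot be told apart from its own.

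The 4 *Cyp3a* genes had in common that LIRKO 1 lay above all Flox arrays, with a median difference of 0.33. *Cyp3a11*, the main mouse target of PXR and close to human CYP3A4, read 12.31, 12.22 and 12.44 on Flox and 12.68, 12.30 and 12.59 on LIRKO arrays. LIRKO 2 lay within the Flox range. Its log2 fold change was 0.20 (SE 0.141, adjusted p = 0.386), against 1.17 after cyclic loess and 0.87 after the deciles were subtracted. *Cyp3a16*, a fetal form, read 4.41, 4.71 and 4.71 on Flox and 4.92, 4.93 and 4.90 on LIRKO arrays, without overlap (log2 fold change 0.30, SE 0.126, adjusted p = 0.238). After cyclic loess it was 0.20, and 0.18 after the deciles were subtracted. *Cyp3a13* and *Cyp3a25* read -0.36 and -0.02 as deposited, 0.39 and 0.26 on LIRKO 1, 0.19 and 0.63 after cyclic loess, and 0.31 and 0.65 after the deciles were subtracted. After the median of the deciles was subtracted, all 4 *Cyp3a* genes were above the Flox mean on each of the 3 LIRKO arrays, by as little as 0.05 for *Cyp3a13* on LIRKO 2, as were 11 of the 36 genes (30.6%) and 25.0% of all genes. Of the CAR and PXR targets listed, 6 of 16 were measured here (*Cyp2c29*, *Cyp3a11*, *Cyp3a13*, *Cyp3a25*, *Ugt2b34* and *Ephx1*). By limma 0 passed the adjusted test, and at an unadjusted p under 0.05, 1 read higher (*Cyp2c29*) and 1 lower (*Ephx1*), each 16.7% of the 6 beside 7.13% higher and 15.6% lower over all genes. Their median was -0.19, 0.31 on LIRKO 1 and 0.41 after cyclic loess, so its sign followed the scaling.

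**Figure D2:**
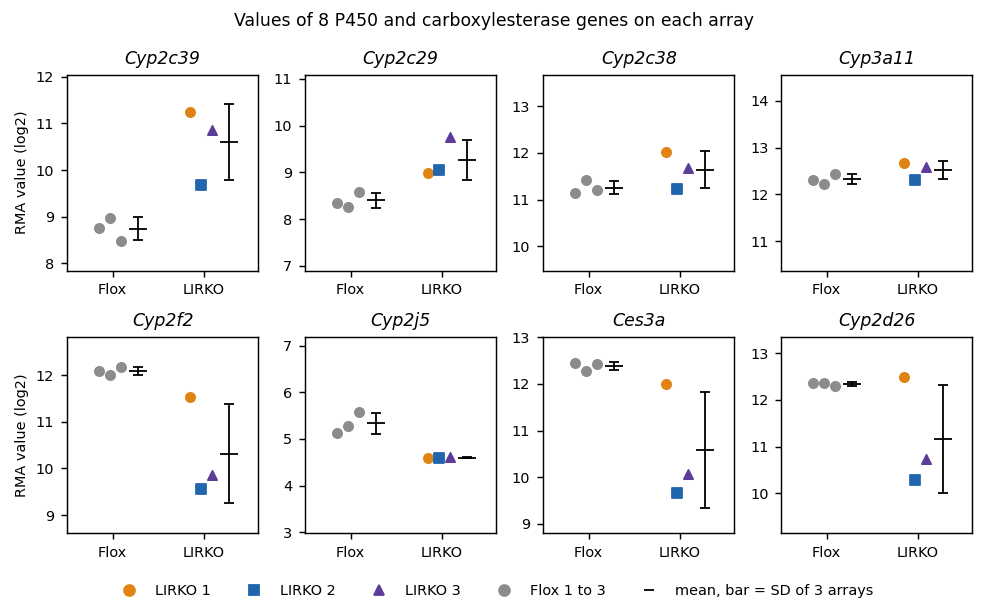
RMA values (log2, vertical axis) of 8 genes on each array, with Flox in grey and the LIRKO arrays in colour; the horizontal dash and bar give the mean and SD of 3 arrays, and every panel spans the same log2 range. *Cyp2c39* and *Cyp2c29* do not overlap, *Cyp2j5* reads 4.59 to 4.61 on the LIRKO arrays, and in *Cyp2f2*, *Ces3a* and *Cyp2d26* LIRKO 1 sits nearer to Flox than LIRKO 2 and 3 do.

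Of the other CYP2 enzymes, *Cyp2j5*, an epoxygenase of kidney and liver, had the smallest p of the 36 genes. It read 5.14, 5.29 and 5.58 on Flox and 4.59, 4.60 and 4.61 on LIRKO arrays. The LIRKO arrays lay together below all Flox arrays. It was 1.66-fold lower (log2 fold change -0.73, SE 0.142, adjusted p = 0.237). Its probe set is dim, with a mean below the median of all probe sets, and was not fitted where dim probe sets were left out. Nor were those of *Cyp1a1*, *Cyp1b1*, *Cyp11a1*, *Cyp24a1*, *Cyp26a1*, *Cyp2b19*, *Cyp2j6*, *Cyp2s1*, *Cyp3a16* and *Ugt8a*. The difference of *Cyp2j5* was -0.74 on LIRKO 1 alone and -0.83 after cyclic loess, the same direction at a similar size. Its relative *Cyp2j6* read 3.04 to 3.15 on Flox and 2.96 to 3.23 on LIRKO arrays (log2 fold change 0.01).

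*Cyp2f2*, known for turning naphthalene into its toxic epoxide, and *Cyp2a12*, a steroid hydroxylase, are adjacent genes. *Cyp2f2* read 12.09, 11.99 and 12.16 on Flox and 11.52, 9.57 and 9.85 on LIRKO arrays. All LIRKO arrays lay below Flox, LIRKO 2 and 3 much further than LIRKO 1. The log2 fold change was -1.77 (SE 0.479, adjusted p = 0.237), with -0.56 on LIRKO 1, -1.002 after cyclic loess and -1.10 after the deciles were subtracted. *Cyp2a12* read 11.88, 11.40 and 11.71 on Flox and 11.20, 9.73 and 9.96 on LIRKO arrays, again without overlap. The mean difference was -1.37 (SE 0.381, adjusted p = 0.237), -0.46 on LIRKO 1, -0.64 after cyclic loess and -0.70 after the deciles were subtracted. Both genes thus read lower than Flox on LIRKO 1 as well, by less than on the other arrays.

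The *Cyp2d* genes, mouse relatives of human CYP2D6, split by array. *Cyp2d26* read 12.36, 12.37 and 12.30 on Flox and 12.48, 10.29 and 10.74 on LIRKO arrays. *Cyp2d10* read 13.16, 12.78 and 13.07 on Flox and 13.26, 11.37 and 11.98 on LIRKO arrays. For both, LIRKO 1 lay above all Flox arrays and LIRKO 2 and 3 below all of them. The log2 fold changes were -1.17 (SE 0.522, adjusted p = 0.245) and -0.80 (SE 0.447, adjusted p = 0.300). After cyclic loess and after the deciles were subtracted that of *Cyp2d26* was -0.32 and -0.51. That of *Cyp2d10* was 0.19 and -0.13, and -0.31 after quantile normalization, so its sign turned under cyclic loess but not under the other 2 rescalings. A second *Cyp2d10* probe set gave -1.20 and 0.09 on LIRKO 1. *Cyp2b19*, a skin epoxygenase, and *Cyp2s1*, an enzyme mostly of epithelia outside the liver, gave log2 fold changes of 0.04 and 0.22 with overlapping groups.

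In the CYP4 family, *Cyp4v3*, the mouse relative of the fatty acid hydroxylase CYP4V2, read 11.79, 11.76 and 11.71 on Flox and 11.38, 9.70 and 10.26 on LIRKO arrays. No LIRKO array reached the Flox values. This was a log2 fold change of -1.30 (SE 0.391, adjusted p = 0.237), with -0.37 on LIRKO 1, -0.55 after cyclic loess and -0.64 after the deciles were subtracted. *Cyp4f13* read 8.90, 8.67 and 8.83 on Flox and 8.97, 7.68 and 7.79 on LIRKO arrays. LIRKO 1 was the highest of all 6 and LIRKO 2 and 3 the lowest. It differed by -0.65 over 3 arrays (adjusted p = 0.274), -0.40 after cyclic loess and -0.36 after the deciles were subtracted, and a second, family-shared probe set gave -0.17. *Cyp4b1*, best known from lung, gave 0.23 with overlapping groups.

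*Cyp1a1*, the classical AhR target, read 5.52, 5.48 and 5.55 on Flox and 5.71, 5.82 and 5.83 on LIRKO arrays. The groups did not overlap, and the log2 fold change was 0.27 (SE 0.107, adjusted p = 0.237). Its second probe set also gave 0.27, and LIRKO 1 alone 0.19. The first probe set gave 0.19 after cyclic loess and 0.18 after the deciles were subtracted. *Cyp1b1*, an estradiol hydroxylase, read 4.76, 4.96 and 4.72 on Flox and 4.78, 5.74 and 4.90 on LIRKO arrays. Only LIRKO 2 lay above the Flox range (log2 fold change 0.33, adjusted p = 0.430). Of the AhR targets listed, these 2 of 5 were measured here. By limma 0 passed the adjusted test, and *Cyp1a1* alone read higher at an unadjusted p under 0.05, as did 7.13% of all genes.

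Among P450s of hormone synthesis, *Cyp17a1*, the hydroxylase and lyase of androgen synthesis, read 7.86, 7.95 and 8.13 on Flox and 9.06, 8.27 and 8.19 on LIRKO arrays. The groups did not overlap, though LIRKO 2 and 3 lay close above Flox 3. LIRKO 1 was 2.11-fold above the Flox mean (adjusted p = 0.0118 for this array alone). Over 3 arrays the log2 fold change was 0.52 (SE 0.243, adjusted p = 0.251), and a second probe set gave 0.76. *Cyp21a1*, a steroid hydroxylase of the adrenal cortex, read 8.81 to 9.02 on Flox and 8.36 to 8.75 on LIRKO arrays (log2 fold change -0.26, but 0.05 after cyclic loess and 0.03 after the deciles were subtracted). *Cyp11a1*, which cleaves the side chain of cholesterol, gave 0.13 with overlapping groups.

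For vitamin D and retinoids, *Cyp24a1*, which degrades active vitamin D, read 3.30, 3.48 and 3.31 on Flox and 3.21, 4.79 and 5.02 on LIRKO arrays. LIRKO 2 and 3 were above Flox and LIRKO 1 below it (log2 fold change 0.98, SE 0.450, adjusted p = 0.250). The second *Cyp24a1* probe set gave -0.02, so the probe sets disagreed. *Cyp27b1*, which makes active vitamin D, read 6.43, 6.66 and 6.58 on Flox and 6.64, 7.17 and 6.86 on LIRKO arrays, overlapping through LIRKO 1 (log2 fold change 0.34, adjusted p = 0.263). *Cyp26a1*, which degrades retinoic acid, gave -0.20 with overlapping groups.

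Of the UGTs, *Ugt2b5* read 12.45, 12.005 and 12.46 on Flox and 12.37, 10.75 and 11.24 on LIRKO arrays. LIRKO 1 lay within the Flox range and LIRKO 2 and 3 below it. Its log2 fold change was -0.85 (SE 0.397, adjusted p = 0.252), 0.06 on LIRKO 1, 0.03 after cyclic loess and -0.18 after the deciles were subtracted. Its probe set is marked as shared within the gene family. *Ugt2b34* gave similar values, with -0.68 over 3 arrays, 0.07 on LIRKO 1 and -0.14 after cyclic loess. *Ugt8a*, which makes galactosylceramide, read 3.83 to 3.90 on Flox and 3.94 to 4.13 on LIRKO arrays (log2 fold change 0.16, adjusted p = 0.383).

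All 5 carboxylesterases had a log2 fold change below 0 as deposited, with a median of -1.04, though *Ces1c* and *Ces2g* turned to 0.15 and 0.46 after cyclic loess. That median was -0.43 after cyclic loess and -0.37 after the deciles were subtracted. 4 of the 5 lay in the top decile of Flox values, and the median on LIRKO 1 was -0.24. *Ces3a*, a lipid hydrolase, read 12.45, 12.28 and 12.42 on Flox and 12.001, 9.67 and 10.07 on LIRKO arrays. No LIRKO array overlapped Flox. The mean was 12.39 ± 0.091 in Flox and 10.58 ± 1.25 in LIRKO (SD, n = 3 arrays), a log2 fold change of -1.81 (SE 0.561, adjusted p = 0.237). It was -0.38 on LIRKO 1, -0.99 after cyclic loess and -1.14 after the deciles were subtracted.

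*Ces1g*, a hydrolase of hepatic lipid, read 8.39, 8.34 and 8.77 on Flox and 8.06, 6.86 and 7.31 on LIRKO arrays. It was the carboxylesterase outside that decile, and its groups did not overlap. The log2 fold change was -1.09 (SE 0.304, adjusted p = 0.237), -0.44 on LIRKO 1, -0.95 after cyclic loess and -0.80 after the deciles were subtracted. *Ces1d*, the triacylglycerol hydrolase, read 10.47, 10.86 and 10.88 on Flox and 10.83, 9.15 and 9.11 on LIRKO arrays. LIRKO 1 lay within the Flox range. Its log2 fold change was -1.04 (SE 0.457, adjusted p = 0.243), its second probe set gave -1.12, and LIRKO 1 gave 0.10. After cyclic loess it was -0.43 and after the deciles were subtracted -0.37. *Ces1c*, a secreted esterase of plasma and the neighbour of *Ces1d*, read 11.72, 11.67 and 11.91 on Flox and 11.88, 10.60 and 10.84 on LIRKO arrays. Together these gave -0.66 (SE 0.322, adjusted p = 0.262), 0.15 after cyclic loess and 0.0094 after the deciles were subtracted. *Ces2g* gave -0.02, against 0.46 and 0.65 under these rescalings. *Ephx1*, which opens epoxides made by P450s, read 11.40, 11.48 and 11.37 on Flox and 11.44, 10.13 and 10.04 on LIRKO arrays. LIRKO 1 lay within the Flox range (log2 fold change -0.88, SE 0.362, adjusted p = 0.238, -0.15 after cyclic loess and -0.21 after the deciles were subtracted).

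**Figure D3:**
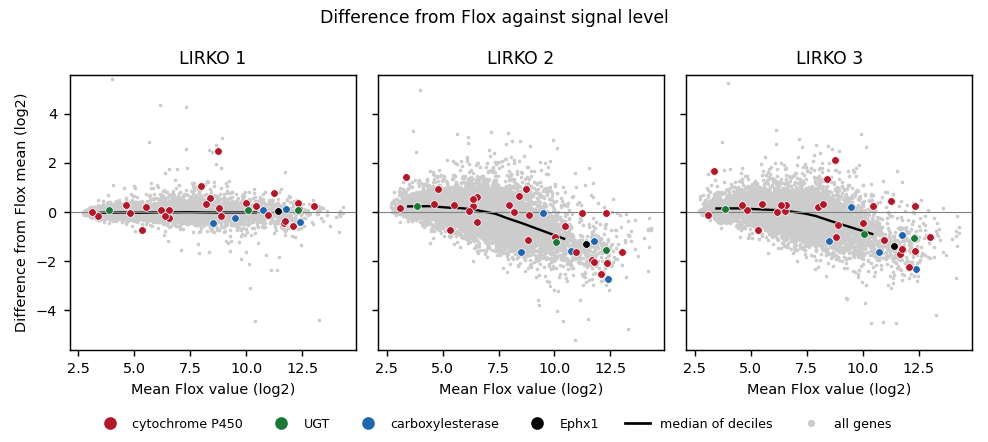
Difference of each LIRKO array from the Flox mean (log2, vertical axis) against the mean Flox value (log2, horizontal axis) for all 8251 genes in grey and the 36 genes in colour by family; the black line joins the medians of deciles of all probe sets. The line is flat on LIRKO 1 and falls to -1.09 and -0.89 on LIRKO 2 and 3, and the 36 genes at high values lie on both sides of it, while *Cyp2c39* lies above it on every LIRKO array.

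The 17 genes in the top decile of Flox values had a median log2 fold change of -0.85, beside -0.64 for the 993 genes of that decile. On LIRKO 1 the medians were 0.07 and -0.02, and after cyclic loess -0.14 and -0.09. In this decile 23.5% of the 17 genes lay below Flox without overlap, beside 35.2% of all genes there. The 19 genes outside it had a median of 0.22. The part of the level-dependent shift in the lower values, and in the higher values of dim genes, was not tested gene by gene. *Cyp2j5* lay outside that decile and differed by a similar amount on all 3 LIRKO arrays. With the median of its decile subtracted, *Cyp2c39* lay 2.52, 1.41 and 2.48 above the Flox mean on LIRKO 1, 2 and 3.

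**Figure D4:**
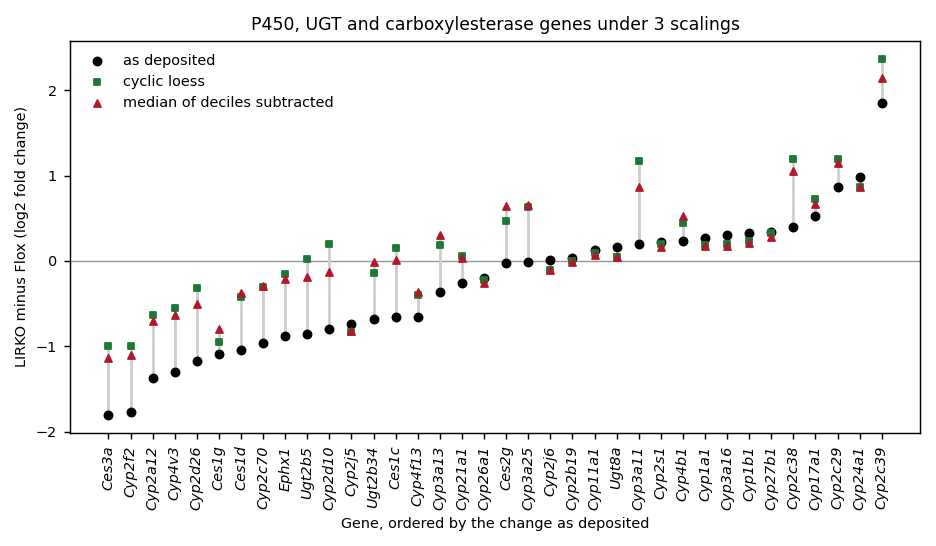
Log2 fold change (LIRKO minus Flox, vertical axis) of each of the 36 genes (horizontal axis, ordered by the value as deposited) as deposited in black, after cyclic loess in green and after the median of the deciles was subtracted in red. Most of the lower values on the left move toward 0, *Cyp3a11* moves from 0.20 to 1.17 after cyclic loess, and *Cyp2c39* is the highest under all 3.

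Enzymes that supply P450s and UGTs with electrons or cofactor, and factors that control them, were also read (20 of 22 listed genes measured). None passed the adjusted test. 1 (5%) read higher and 6 (30%) lower at an unadjusted p under 0.05, beside 7.13% and 15.6% of all genes. Their median was -0.35 as deposited, 0.06 on LIRKO 1, -0.13 after cyclic loess and -0.04 after the deciles were subtracted, so its size and sign followed the array and the scaling. *Ppara*, the nuclear receptor that drives fatty acid oxidation and CYP4A genes, read 8.71, 9.02 and 9.24 on Flox and 8.19, 7.996 and 8.01 on LIRKO arrays, without overlap (log2 fold change -0.93, SE 0.161, adjusted p = 0.223, and -0.80 on LIRKO 1). *Cux2*, a transcription factor of female liver, read 6.13, 6.45 and 6.11 on Flox and 6.91, 7.06 and 7.03 on LIRKO arrays, also without overlap (log2 fold change 0.77, SE 0.136, adjusted p = 0.224, and 0.68 on LIRKO 1). *Cyb5r3*, the cytochrome b5 reductase, gave -1.46 and -0.34 on LIRKO 1. *Ugdh*, which makes UDP-glucuronic acid for the UGTs, gave -0.70 as deposited and -0.06 after cyclic loess. The receptors *Nr1i3* and *Nr1i2* were named after their values were seen. *Nr1i3* gave -0.08 without overlap, but 0.57 after cyclic loess and 0.59 after the deciles were subtracted, so its sign followed the scaling. *Nr1i2* gave 0.19, and 0.20 and 0.18 under these rescalings.

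Several probe sets could stand for more than one gene. That of *Cyp4b1* was marked as shared within the gene family, as were those of *Cyp2c38* and *Ugt2b5*. The probe set names of *Cyp2d10* and *Cyp21a1* ended in s_at, those of *Cyp3a16* and *Cyp24a1* in r_at and that of *Ces1d* in i_at. The part of these marks in the values was not tested. Of the 36 genes, 29 had 1 probe set and 7 had 2, of which the one with the higher mean over all arrays was read. A further 8 probe sets carried several symbols of these families and were named for none. They gave log2 fold changes from -1.73 to 0.95, with 0 past the adjusted test (smallest adjusted p 0.237), and differences on LIRKO 1 from -0.29 to 1.76.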

How the data were processed

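Total liver RNA was hybridized to 6 one-colour arrays. The authors deposited log2 values that they had made from the scanner signals by RMA in R (affy and limma). If RMA was run on all 6 arrays at once is not given in the sources used. Arrays give no read depth, so their number, 3 a group, limits the precision. From 12488 probe sets, 66 array controls were left out. Of the 12422 tested, 10833 had 1 gene symbol, 396 several and 1193 none in the platform annotation. For each of 8251 genes the probe set brightest on average over the arrays was used.

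LIRKO and Flox were compared with limma 3.58.1 (lmFit and eBayes, R 4.3.3), without covariates, and p-values were adjusted by Benjamini-Hochberg over all 12422 probe sets, with a threshold of 0.05. The fit was tested on simulated data. Groups were taken from the labels. The pooling of mice for each array is given in the methods of the study, which do not say if pools shared mice. Genes named were any past the threshold, *Ephx1*, the 10 with the highest mean, the 8 largest rises and 8 largest falls, the smallest p of each enzyme group, the 5 with the widest gap where LIRKO 1 opposed the mean change, the 4 whose probe sets differed most, and the 4 partner genes with the smallest p. The remaining genes of a group are given so that all 36 are accounted for. The members and lists were chosen with earlier results of these data known. Promoters came from RefSeq (GRCm38.p6), and all 36 genes were matched to its gene table. The 15 alternatives were another normalization (cyclic loess, renewed quantile, deciles subtracted), dim probe sets left out, a trend and robust variance model, the methods' t-test, a replicate block, averaged probe sets of a gene, each array left out, and LIRKO 1 alone. Settings were computed with Python 3.11.15, numpy 2.4.6 and pandas 2.3.3.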

Additional observations from a re-analysis of the deposited data

How the results depend on the processing

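No gene of the 36 passed the adjusted test as deposited. 1 passed after cyclic loess (*Cyp2c39*), and 0 by the methods' t-test. When 1 array was left out 0 to 22 passed, the 22 without LIRKO 1, where 50.7% of all genes passed. With the replicate number as a replicate block 0 passed. The numbers were not shown to pair the pools. Deviations from the group mean correlated at 0.32, 0.40 and 0.09 between same-numbered Flox and LIRKO pools. Between other pairs they correlated at -0.37 to 0.17. The same-numbered pool was the highest for Flox 1 and Flox 2 but not for Flox 3. The median over the 36 genes was -0.11 as deposited, 0.0756 after cyclic loess and 0.0729 with LIRKO 2 and LIRKO 3 left out. With dim probe sets left out, 25 of the 36 genes remained. Their fold changes were unchanged, and their median was -0.66. That of the P450s was 0.04, and 0.19 after cyclic loess, 0.12 after quantile normalization and 0.17 with the deciles subtracted. Over the P450s left without dim probe sets it was -0.26. That of the UGTs was -0.68, and 0.0254, -0.00818 and 0.0668 after cyclic loess, with the deciles subtracted and on LIRKO 1. That of the carboxylesterases was -1.04, and -0.43 after cyclic loess, -0.64 after quantile normalization, -0.37 with the deciles subtracted and -0.24 on LIRKO 1. Genes above Flox without overlap numbered 6, and 10 with the deciles subtracted, 15 on LIRKO 1 and 3 of the 25 left without dim probe sets. With 1 array left out they numbered 6 to 10, the 10 without LIRKO 1 and again without LIRKO 2. Those below numbered 7, and 7 to 17 with 1 array left out, the 17 without LIRKO 1. Over all genes as deposited 9.65% lay above and 16.7% below, and 25.6% lay above on LIRKO 1. Shares of all genes under the other settings were not counted, so these counts show nothing particular to the 36. Among the 24 named genes, the sign turned for *Ces1c* (0.15), *Cyp2d10* (0.19) and *Ugt2b5* (0.0254) after cyclic loess. It turned for *Ces1c* also after quantile normalization (0.000798) and with the deciles subtracted (0.0094). On LIRKO 1 it turned, among the named genes, for *Ces1c* (0.12), *Ces1d* (0.10), *Cyp1b1* (-0.0301), *Cyp24a1* (-0.15) and *Cyp2d10* (0.26). It also turned there for *Cyp2d26* (0.14), *Cyp4f13* (0.17), *Ephx1* (0.0261) and *Ugt2b5* (0.0644). Some genes outside these 24 turned as well, such as *Ces2g* after cyclic loess (0.46). The cause was not tested. Of the 24 named genes, 19 had a value under all 15 alternatives, and 12 of them kept their direction. The other 5 were dim and had no value where dim probe sets were left out, and 3 of them (*Cyp1a1*, *Cyp2j5* and *Cyp3a16*) kept their direction under the rest. The variance model, the t-test and the block leave the fold change as it is. Pools of mice hide the spread between animals, and 3 arrays a group limit the precision.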
